A study of Mus musculus with 6 samples.

Results

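The enzymes and regulators of cholesterol and fatty acid synthesis were followed in day 3 cells differentiated from mouse embryonic stem cells, exposed for 24 h either to trichostatin A (TSA) or to DMSO. The set holds 34 genes of the 18753 named on the array. They were chosen by name: 8 enzymes of the mevalonate and isoprenoid steps, 12 enzymes from squalene to cholesterol, the sterol carrier Stard4, 8 enzymes of fatty acid synthesis and 5 regulators. Each gene was read through the RefSeq identifiers of its probes, 56 probes in all. The series comprised 3 TSA arrays and 3 DMSO arrays, from 3 independent experiments according to the design text, with 1 TSA and 1 DMSO array of the same replicate number on each of 3 slides. All cells came from 129/Ola strain embryonic stem cells plated on gelatin and differentiated in N2B27 without serum. TSA inhibits histone deacetylases, the enzymes that take acetyl groups off histones and other proteins, and DMSO is its solvent. The labels give neither the dose of TSA nor the name of the stem cell line. The TSA array always lay at 1 slide position and the DMSO array at another, so treatment and position cannot be told apart.

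Cholesterol is built from acetyl-CoA through mevalonate, isoprenoid diphosphates, squalene and lanosterol, while long-chain fatty acids are built from malonyl-CoA and then elongated and desaturated. Genes of both routes are known targets of the sterol regulatory element binding proteins, SREBP-1 and SREBP-2. These membrane-bound factors are carried from the endoplasmic reticulum to the Golgi by the escort protein SCAP, are cut there and then enter the nucleus. The INSIG proteins hold SCAP back when sterols are plentiful. Cells grown without serum lipoproteins generally depend on their own sterol synthesis.

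SREBPs are known to act on promoters together with the factors NF-Y and Sp1, and the promoters of the set were searched for a motif of each. In the RefSeq promoter windows (GRCm38.p6, 250 bases before to 50 after a start), 27 of the 34 genes had an entry. Both strands were searched for 3 motifs, none of which contains another: TCACNCCAC (a sterol regulatory element), CCAAT (the NF-Y box) and GGGCGG (the GC box). TCACNCCAC was present in 1 of the 27 genes, Hmgcs1, and in 2.86% of the windows of the set, against 1.24% of all mouse windows. CCAAT was found in 22 of 27 genes and 65.7% of the windows, against 37.4% of all windows. GGGCGG was likewise found in 22 of 27 genes and 74.3% of the windows, against 35.7% of all windows. All 10 enzymes from squalene to cholesterol that had an entry carried both CCAAT and GGGCGG. Over all genes with an entry, 41.1% carried CCAAT and 38.2% GGGCGG. Of the 7 mevalonate and isoprenoid enzymes with an entry, 6 carried CCAAT and 5 GGGCGG. Among the 5 regulators, 4 carried CCAAT and 5 GGGCGG, and each of these motifs was found in 2 of 5 fatty acid enzymes. A match is a description of letters and not evidence of binding. The 250 bases before the start are shown 5′ to 3′ on the coding strand, with the motifs in capitals. The first is the member with the sterol element (Hmgcs1, chr13:119690101-119690350, plus strand). A pair of late sterol enzymes lower in TSA on every slide follows (Sc5d, chr9:42264301-42264550, and Msmo1, chr8:64733579-64733828, both minus strand). The last is a regulator with similar levels in both groups by the probe used (Insig1, chr5:28071162-28071411, plus strand). The sterol element of Hmgcs1 lies 137 to 129 bases before its start, and ATTGG and CCGCCC are CCAAT and GGGCGG read on the other strand.
Hmgcs1: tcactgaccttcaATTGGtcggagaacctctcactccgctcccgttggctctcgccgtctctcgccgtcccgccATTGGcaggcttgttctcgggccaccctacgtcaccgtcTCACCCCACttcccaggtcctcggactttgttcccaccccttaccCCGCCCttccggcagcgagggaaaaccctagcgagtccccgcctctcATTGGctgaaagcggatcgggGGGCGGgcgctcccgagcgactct
Sc5d: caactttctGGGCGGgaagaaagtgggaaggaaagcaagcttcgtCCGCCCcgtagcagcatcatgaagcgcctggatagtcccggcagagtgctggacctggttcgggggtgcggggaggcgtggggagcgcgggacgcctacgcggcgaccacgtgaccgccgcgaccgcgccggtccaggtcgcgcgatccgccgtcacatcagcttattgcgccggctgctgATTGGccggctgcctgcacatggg
Msmo1: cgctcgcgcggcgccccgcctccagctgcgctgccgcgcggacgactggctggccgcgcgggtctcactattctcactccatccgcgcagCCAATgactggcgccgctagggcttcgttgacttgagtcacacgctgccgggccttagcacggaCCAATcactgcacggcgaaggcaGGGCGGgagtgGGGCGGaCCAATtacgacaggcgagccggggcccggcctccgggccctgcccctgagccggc
Insig1: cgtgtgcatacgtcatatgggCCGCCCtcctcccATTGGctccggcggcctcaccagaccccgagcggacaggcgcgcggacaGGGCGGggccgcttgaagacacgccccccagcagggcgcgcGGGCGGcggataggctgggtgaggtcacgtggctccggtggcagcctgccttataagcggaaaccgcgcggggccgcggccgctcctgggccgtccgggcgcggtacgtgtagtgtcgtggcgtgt

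Levels are log2 of the processed signal relative to the 75th percentile of the same array, and a difference is TSA minus DMSO in these log2 units, with its standard error from the limma fit (n = 3 arrays each). The 75th percentile itself was 671, 310 and 884 intensity units on TSA arrays 1, 2 and 3, against 632, 653 and 924 on the DMSO arrays of slides 1, 2 and 3. TSA array 2 thus stood apart as the dimmest array, with 61.1% of its spots well above background against 65.6% to 72.3% on the other 5, and results are given with and without it. Of the cell markers, the 5 pluripotent epiblast genes summed to 54.7 to 86.0 times the 75th percentile on TSA arrays and to 64.5 to 108 on DMSO arrays, and the 5 neural progenitor genes to 6.36 to 8.09 on TSA arrays and 8.19 to 9.64 on DMSO arrays. All 10 of these genes were well above background on all 6 arrays. Nes had the highest level of the 5 neural genes and so weighed most in their sum. Nes, Pax6 and Zfp521 were lower in TSA on each slide, whereas Sox1 and Hes5 were higher on each. Sums for the 5 mesendoderm genes were 7.91 to 22.8 on TSA arrays and 3.44 to 11.5 on DMSO arrays. Endoderm genes summed to 1.27 to 13.7 on TSA arrays and 1.46 to 15.5 on DMSO arrays, with Ttr not above background on any array. Relative to each gene's DMSO mean, the median of the 4 tested genes was 1.51 on TSA array 2 and 1.55 on DMSO array 2. It was -1.38 to -0.19 on the other arrays. For the mesendoderm genes this median was 1.47 on DMSO array 2, against -0.33 and -1.17 on DMSO arrays 1 and 3. Fibroblast genes summed to 10.3 to 14.6 on TSA arrays and 5.17 to 7.94 on DMSO arrays, with Lum not above background on any array. Thy1 had the highest level of the fibroblast genes and weighed most in their sum. Col1a1, Col1a2 and Thy1 were higher in TSA on each slide, whereas Dcn was lower on each, at -1.04, -0.97 and -0.73. Genes of lipid-handling endoderm summed to 1.70 to 3.43 on TSA arrays and 1.06 to 1.66 on DMSO arrays, with Apoa1 and Apoa4 not above background on any array. Rbp4 had the highest level of these genes and weighed most in their sum. Rbp4 and Apob were higher in TSA on each slide, whereas Apom was near 0, at -0.06, 0.11 and 0.14. The part of these cell types in the results was not tested, and in bulk RNA fewer cells of a type and less RNA per cell cannot be told apart.

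None of the 34 genes passed the test: 0 had an adjusted p under 0.05 (limma, Benjamini-Hochberg over 28160 probes), where 0.0551% of the 14530 tested genes were called lower and 1.36% higher in TSA. With the slide as a block, which the pairing of the arrays allows, 0 members were again called, against 0.145% of genes lower and 3.2% higher. At an unadjusted p under 0.05, 2 members were lower (Hmgcs1 and Sc5d), against 2.8% of all genes, and 0 were higher, against 12.1%. The blocked fit gave the same 2 genes, against 5.46%. These 2 were also the members closest to the threshold, with adjusted p of 0.380 for Hmgcs1 and 0.375 for Sc5d by limma. All 34 were read well above background on all 6 arrays by the probe used, so low signal did not remove any.

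The enzymes had mostly lower values in TSA, and how many did so depended on the slide. The mean was lower in TSA for 25 of the 34 members, against 42.0% of all genes, and higher for 9, against 58.0%. On slide 1, 32 members were lower (52.7% of all genes), on slide 2, 16 were lower (34.7%), and on slide 3, 25 were lower (46.8%). The 25 of slide 3 were also lower on slide 1, against 38.8% of all genes for both slides. On all 3 slides, 14 members were lower by the probe used, against 21.5% of all genes, and 0 were higher, against 32.5%. Those 14 were Hmgcs1, Idi1, Ggps1, Sqle, Cyp51, Lbr, Msmo1, Nsdhl, Hsd17b7, Sc5d, Stard4, Acly, Elovl6 and Scd1. For 8 members every TSA array lay below every DMSO array, against 8.36% of all genes, namely Hmgcs1, Idi1, Sqle, Cyp51, Msmo1, Hsd17b7, Sc5d and Stard4. No member had every TSA array above every DMSO array, which was so for 16.3% of all genes.

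**Figure D1:**
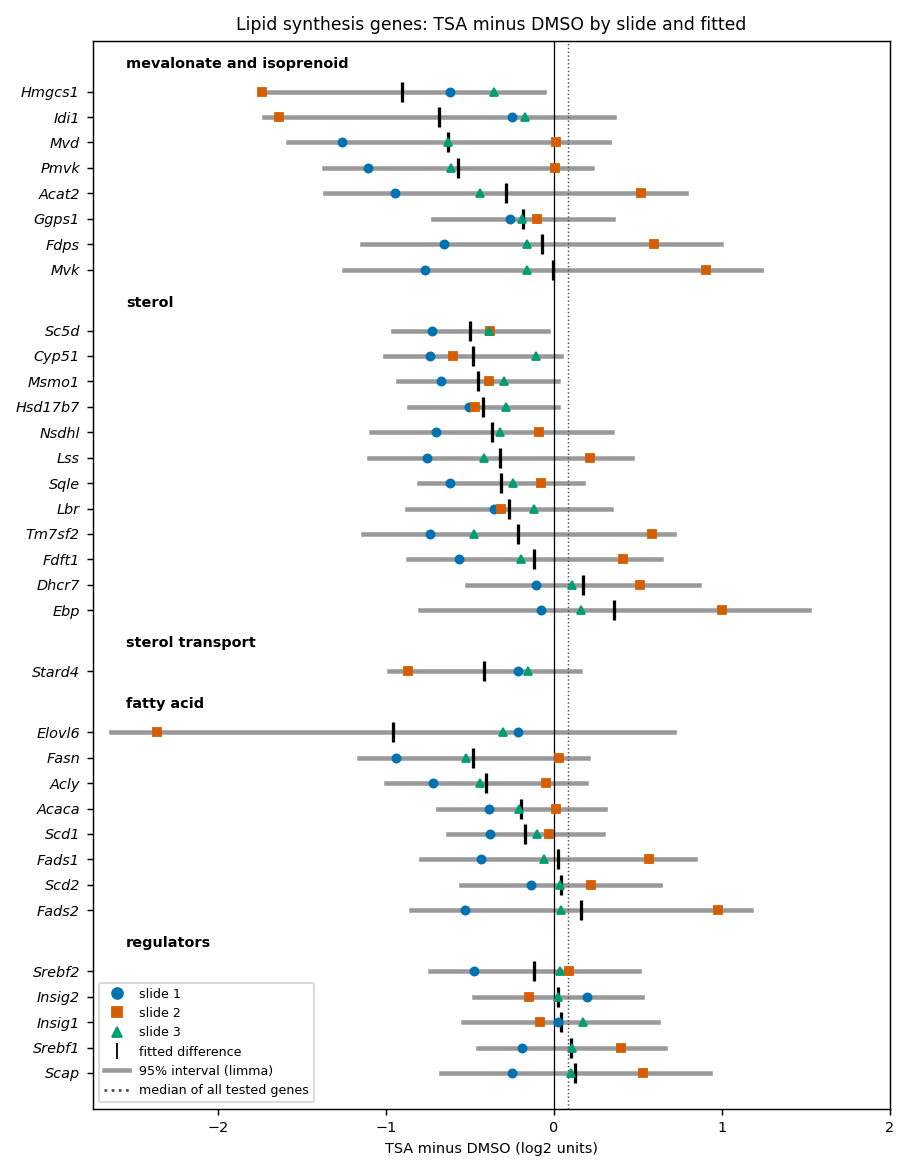
TSA minus DMSO in log2 units (horizontal axis) for each of the 34 genes, grouped by role. Coloured symbols are the differences on slides 1, 2 and 3, black ticks the fitted differences, grey bars their 95% intervals from limma, and the dotted line the median of all tested genes (0.08). Most enzymes lie left of 0 on slides 1 and 3, slide 2 spreads to both sides, and only the intervals of Hmgcs1 and Sc5d leave out 0 before adjustment.

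Among the 8 enzymes of the mevalonate and isoprenoid steps the median difference was -0.43, against 0.08 over all tested genes (quartiles -0.20 and 0.40). By slide the medians of the 8 were -0.71, 0.01 and -0.27, against -0.03, 0.31 and 0.03 over all genes. Hmgcs1, the synthase that makes HMG-CoA, stood at 5.31, 4.21 and 5.44 log2 units on TSA arrays 1, 2 and 3, against 5.93, 5.95 and 5.79 on DMSO arrays 1, 2 and 3. All TSA arrays were below all DMSO arrays, and TSA array 2 was the lowest. The difference was -0.91 ± 0.35 (SE, n = 3 each), a TSA level 0.533 of the DMSO level, with a limma adjusted p of 0.380, or 0.222 in the blocked fit. Without TSA array 2 it was -0.52, with a limma adjusted p of 0.153. A further Hmgcs1 probe gave -0.71 ± 0.33, with slide differences of -0.55, -1.25 and -0.31.

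Pmvk, the kinase that adds the next phosphate to phosphomevalonate, was at 3.30, 4.52 and 3.71 on TSA arrays, against 4.40, 4.52 and 4.33 on DMSO arrays. TSA arrays 1 and 3 were low, while the groups met on slide 2, where the difference was 0.01. The fit gave -0.57 ± 0.33 with a limma adjusted p of 0.582 and, without TSA array 2, -0.91 with 0.0702. Idi1, the isomerase that interconverts the first isoprenoid building blocks, had TSA levels of 3.84, 2.32 and 3.86 and DMSO levels of 4.09, 3.96 and 4.04. Here TSA array 2 was the low one, at -1.64 on its slide against -0.25 and -0.18 on slides 1 and 3. The fitted difference was -0.69 ± 0.44 (limma adjusted p = 0.606), and the other Idi1 probe gave -0.73 ± 0.43 with -1.70 on slide 2.

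Mvd, which decarboxylates mevalonate diphosphate, had differences of -1.26, 0.01 and -0.63 on slides 1, 2 and 3. With TSA array 2 left out its difference was -1.06, and its limma adjusted p of 0.0687 was the lowest of any member in any alternative computed. Acat2, the cytosolic thiolase at the head of the pathway, followed the same order with -0.95, 0.52 and -0.44. Mvk, the mevalonate kinase, had -0.77, 0.91 and -0.16, and Fdps, which makes farnesyl diphosphate, -0.66, 0.59 and -0.16. For these 3 genes slide 2 lay on the other side of 0 from slides 1 and 3. Mvk was also the 1 gene of 17 with several probes whose probes differed in sign, at -0.01 and 0.12, both close to 0. Ggps1, which makes geranylgeranyl diphosphate, was closer to 0 on every slide, at -0.26, -0.10 and -0.19.

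**Figure D2:**
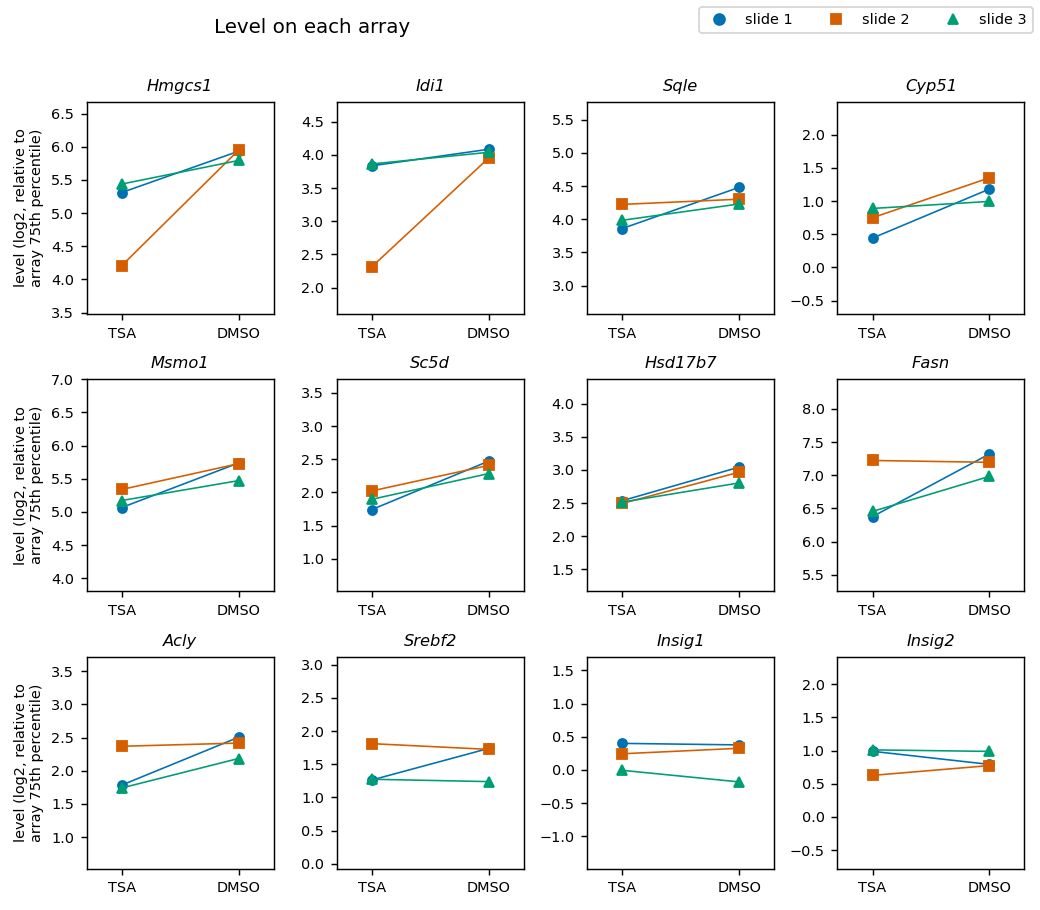
Levels in log2 units relative to the 75th percentile of the array (vertical axes, each spanning the same number of units) on the 3 TSA arrays (left in each panel) and the 3 DMSO arrays (right), for 12 members. Lines join arrays of the same slide. Hmgcs1 and Idi1 are lowest on TSA array 2, whereas Fasn on TSA array 2 (7.22) lies at the DMSO level of its slide (7.19).

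The 12 enzymes from squalene to cholesterol had a median difference of -0.32, with medians of -0.65, -0.08 and -0.27 on slides 1, 2 and 3. Their individual differences ran from -0.50 to 0.36. Sc5d, the sterol desaturase of the late pathway, was at 1.74, 2.02 and 1.90 on TSA arrays, against 2.47, 2.41 and 2.29 on DMSO arrays. The groups did not overlap, and the difference of -0.50 ± 0.19 put the TSA level at 0.707 of the DMSO level (limma adjusted p = 0.375, or 0.239 in the blocked fit). Msmo1, the methylsterol monooxygenase, stood at 5.07, 5.34 and 5.17 on TSA arrays and at 5.74, 5.73 and 5.47 on DMSO arrays. Every TSA array was again below every DMSO array, with a difference of -0.45 ± 0.20 (limma adjusted p = 0.454). Hsd17b7, a keto-reductase acting beside Msmo1 in the removal of methyl groups from lanosterol products, had TSA levels of 2.54, 2.49 and 2.51 and DMSO levels of 3.04, 2.97 and 2.80. The 3 TSA values lay close together and below all DMSO values, with a difference of -0.42 ± 0.19 (limma adjusted p = 0.454).

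Of the other enzymes of this segment, Cyp51, the lanosterol demethylase, had slide differences of -0.74, -0.60 and -0.11, and Sqle, which makes the epoxide of squalene, -0.62, -0.08 and -0.25. Groups did not overlap for either gene. Nsdhl, the partner dehydrogenase of Msmo1, had -0.70, -0.09 and -0.32. Lbr, a lamin B receptor that is also a sterol reductase, had -0.36, -0.32 and -0.12. Both were lower in TSA on each slide by the probe used. Further Nsdhl probes gave -0.003 and 0.19 on slide 2. Lss, which closes squalene epoxide to lanosterol, had -0.76, 0.21 and -0.42, Fdft1, the squalene synthase, -0.57, 0.41 and -0.20, and Tm7sf2, the other sterol reductase of Lbr's step, -0.74, 0.58 and -0.48. These 3 were lower on slides 1 and 3 and higher on slide 2 by the probe used. The other Lss probe gave -0.07 on slide 2. The other Fdft1 probe, well above background on only 3 arrays, gave -0.50 on slide 2 and 0.22 on slide 3. Ebp, the sterol isomerase, and Dhcr7, which makes cholesterol in the last step of its branch, were the exceptions with positive fitted differences of 0.36 ± 0.48 and 0.17 ± 0.29. Their slide differences were -0.08, 1.00 and 0.16 for Ebp and -0.11, 0.51 and 0.11 for Dhcr7.

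Stard4, which carries cholesterol between membranes, had differences of -0.22, -0.87 and -0.16 and no overlap between the groups by the probe used. Its other probes gave -0.05 and -0.11 on slide 2, so the value of -0.87 was not shared among its 3 probes.

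The 8 fatty acid enzymes had a median difference of -0.18, with -0.41, 0.02 and -0.15 by slide. Without TSA array 2 the median was -0.31, against -0.03 over all genes. All 8 were lower in TSA on slide 1 (52.7% of all genes), 3 on slide 2 (34.7%) and 6 on slide 3 (46.8%). For 0 of the 8 did every TSA array lie below every DMSO array (8.36% of all genes) or above (16.3%). Fasn, the fatty acid synthase, was at 6.38, 7.22 and 6.45 on TSA arrays, against 7.32, 7.19 and 6.98 on DMSO arrays. TSA arrays 1 and 3 were below all DMSO arrays, and TSA array 2 was among them. The difference was -0.48 ± 0.29 (limma adjusted p = 0.587), and -0.75 with 0.0862 without TSA array 2. Acly, which supplies cytosolic acetyl-CoA to both routes, had TSA levels of 1.78, 2.37 and 1.74 and DMSO levels of 2.51, 2.42 and 2.19. The pattern was that of Fasn, with a difference of -0.40 ± 0.25 (limma adjusted p = 0.598). Elovl6, the elongase of palmitate, stood at 3.85, 1.19 and 3.68 on TSA arrays, against 4.07, 3.56 and 3.99 on DMSO arrays. Its difference of -0.96 ± 0.70 rested on TSA array 2, since it was -0.10 without that array (limma adjusted p = 0.641 with it and 0.848 without).

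Acaca, which makes malonyl-CoA, had slide differences of -0.39, 0.01 and -0.21, and the desaturase Scd1 -0.38, -0.03 and -0.10. Scd2, a related desaturase, was near 0, with -0.14, 0.22 and 0.04. The desaturases of polyunsaturated fatty acids, Fads1 and Fads2, had -0.44, 0.57 and -0.06 and -0.53, 0.97 and 0.04. By the probe used, slide 2 gave the highest difference of the 3 slides for 7 of the 8 fatty acid enzymes and the lowest for Elovl6. Further Acaca probes gave -0.40, -0.32 and -0.18 on slide 2, and for none of them was this the highest. The median over all tested genes was likewise highest on slide 2, at 0.31 against -0.03 and 0.03 on slides 1 and 3.

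The 5 regulators had a median difference of 0.04, with -0.19, 0.09 and 0.10 by slide, and -0.07 without TSA array 2. Srebf1, which encodes SREBP-1, was at 4.26, 4.82 and 4.32 on TSA arrays, against 4.45, 4.43 and 4.21 on DMSO arrays. The groups overlapped, with a difference of 0.10 ± 0.23 and a 95% interval from -0.45 to 0.66 (limma). Srebf2, which encodes SREBP-2, had TSA levels of 1.26, 1.81 and 1.27 and DMSO levels of 1.74, 1.72 and 1.24. TSA array 1 was low on its slide (-0.48), and the other slides differed by 0.09 and 0.04. Its fitted difference was -0.12 ± 0.26, with an interval from -0.74 to 0.50. The other Srebf2 probe gave -0.26 ± 0.45 and was lower in TSA on each slide, at -0.45, -0.17 and -0.17.

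Scap, the escort of the SREBPs, stood at 3.51, 4.34 and 3.33 on TSA arrays, against 3.76, 3.82 and 3.22 on DMSO arrays, a difference of 0.13 ± 0.33 with overlapping groups. Insig1, itself a known SREBP target, was at 0.40, 0.24 and -0.01 on TSA arrays, against 0.38, 0.33 and -0.18 on DMSO arrays. The slide 3 arrays of both groups were the low ones, and the difference was 0.04 ± 0.24 with an interval from -0.54 to 0.62. The other Insig1 probe gave 0.24 ± 0.19 and was higher in TSA on each slide, at 0.03, 0.25 and 0.44. Insig2 had TSA levels of 0.99, 0.63 and 1.01 and DMSO levels of 0.79, 0.77 and 0.99. Its difference was 0.02 ± 0.21 with an interval from -0.48 to 0.52. The other Insig2 probe gave 0.13 ± 0.18, with 0.20, 0.17 and 0.02 by slide. By the probe used, limma adjusted p for the 5 regulators ran from 0.868 to 0.969. The intervals still allow differences as large as those of most enzymes.

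Set side by side, the median of the enzymes from squalene to cholesterol was 0.36 log2 units below that of the regulators, with -0.45, -0.17 and -0.37 on slides 1, 2 and 3. It was 0.14 below that of the fatty acid enzymes, with -0.24, -0.10 and -0.11 by slide. Both gaps had the same sign on each slide, and they are descriptions without a test, since the members of each group were fixed by name with earlier results of these arrays known.

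**Figure D3:**
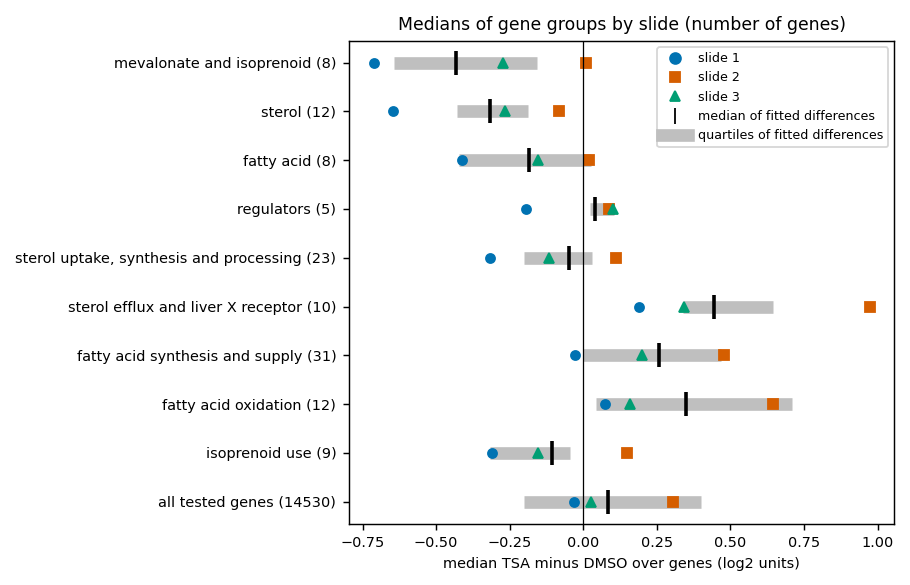
Median TSA minus DMSO in log2 units (horizontal axis) over the genes of each group, with the number of tested genes in brackets. Symbols are the medians on slides 1, 2 and 3, black ticks the medians of the fitted differences and grey bars the quartiles over genes. The mevalonate (-0.43) and sterol (-0.32) groups lie lowest, and the efflux group (0.45) highest.

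The values depended on TSA array 2, the dimmest. Without TSA array 2, 17 of the 34 members were lower in TSA at an unadjusted p under 0.05, against 6.73% of all genes, and 0 passed after adjustment, against 0.2% of genes lower and 2.95% higher. Of the 17, 15 belonged to the 20 mevalonate and sterol enzymes (all but Idi1, Ggps1, Lbr, Ebp and Dhcr7), 2 were Acly and Fasn, and 0 were regulators. With both arrays of slide 2 left out, 9 members were lower at an unadjusted p under 0.05 (Acat2, Hmgcs1, Pmvk, Mvd, Lss, Msmo1, Sc5d, Acly and Fasn), against 6.31% of all genes, and 0 members and 0.0% of genes passed after adjustment. The mevalonate median was then -0.48, the sterol median -0.43, the fatty acid median -0.25 and the regulator median -0.04, against -0.00 over all genes. On slide 2 itself, 3 members lay more than 1 log2 unit lower in TSA (Hmgcs1, Idi1 and Elovl6), against 10.0% of all genes. The corresponding counts were 2 on slide 1 (Pmvk and Mvd), against 1.42% of all genes, and 0 on slide 3, against 0.681%.

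**Figure D4:**
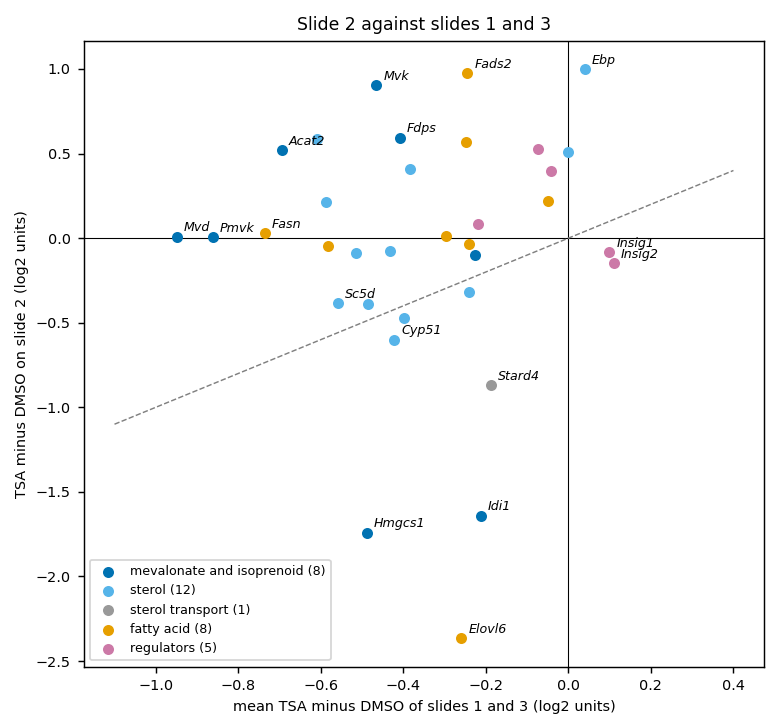
Difference on slide 2 (vertical axis) against the mean difference of slides 1 and 3 (horizontal axis), TSA minus DMSO in log2 units, with 1 point for each of the 34 genes coloured by role. The dashed line marks equal values. Most enzymes lie left of 0 on the horizontal axis, with slide 2 above the line for genes such as Mvk (0.91) and far below it for Hmgcs1 (-1.74), Idi1 (-1.64) and Elovl6 (-2.36).

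Of 88 further genes of the same pathways, listed by name, 85 were tested, and their groups are given by counts. The 23 tested genes of sterol uptake, synthesis and processing had a median difference of -0.05, or -0.29 without TSA array 2, and 15 lower means (42.0% of all genes). Of the 23, 20 were lower on slide 1 (52.7% of all genes), 7 on slide 2 (34.7%) and 18 on slide 3 (46.8%), and for 5 the TSA arrays lay below all DMSO arrays (8.36% of all genes).

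The 10 genes of sterol efflux and the liver X receptors had a median difference of 0.45, with 9 higher means (58.0% of all genes). The median was 0.20 without TSA array 2 and 0.27 with slide 2 left out. For 4 of the 10, every TSA array was above every DMSO array (16.3% of all genes). Mylip, a ubiquitin ligase and known liver X receptor target, was at -0.88, -1.06 and -0.89 on TSA arrays, against -1.72, -1.56 and -1.54 on DMSO arrays. The groups did not overlap, with a difference of 0.67 ± 0.19 (limma adjusted p = 0.202). Abca1, the cholesterol exporter and another known target of these receptors, had slide differences of 0.77, -1.70 and 0.49, and so no common direction. Over the 31 tested genes of fatty acid synthesis and supply the median was 0.26, with 23 higher means (58.0% of all genes). It was 0.06 without TSA array 2 and 0.09 with slide 2 left out. Every TSA array was above every DMSO array for 8 of the 31 (16.3% of all genes) and below for 3 (8.36%). Acss2, which makes acetyl-CoA from acetate and is a known SREBP target, stood at -0.38, 0.07 and -0.68 on TSA arrays, against -1.17, -1.33 and -1.32 on DMSO arrays, opposite in sign to Acly. Its difference was 0.95 ± 0.25 (limma adjusted p = 0.170). No gene of these 2 groups passed with or without the block.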

How the data were processed

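RNA from 3 TSA and 3 DMSO samples was hybridised to single-colour (Cy3) Agilent arrays. Per the file headers, the deposited arrays hold intensity values from Agilent Feature Extraction (version 10.7, per the submitters' processing notes): a processed signal, background-subtracted and detrended within the array. The authors' deposited series table holds log2 values whose normalization is not stated in the sources used here, and it served as an alternative; its columns have medians of 6.31 to 6.34 and correlate with log2 of the processed signal at 0.982 to 0.992.

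Control spots were dropped, processed signals were turned to log2 and each array's 75th percentile over the remaining spots was subtracted. Outlier spots were then dropped and the other spots of a probe were averaged. Of 41174 probes, 27484 were named through RefSeq identifiers, and the 28160 called well above background by at least 3 of the arrays were tested with limma 3.58.1 in R 4.3.3 (lmFit, eBayes, two-sided, treatment as the only term, Benjamini-Hochberg over all tested probes, threshold 0.05). Where a gene had several tested probes, the one of highest mean stands for it. The arrays number 3 per group, which limits the precision. With treatment as the only term, p-values measure the spread between arrays of a group, including shifts shared by both arrays of a slide. Those of the blocked fit measure the spread of the TSA minus DMSO difference between slides. Tested on simulated data with 28137 probes, the fit recovered 53% of changes of 2 log2 units and 69% of changes of 3, with 10 false calls. The differences of the members, from -0.96 to 0.36, were smaller than those simulated, and the simulated arrays shared no slide shifts. The recovery of differences of such size was therefore not measured.

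Same-slide TSA and DMSO arrays deviated together from their group means (correlations of 0.484, 0.614 and 0.585, against -0.568 to 0.0916 between slides), so replicate numbers pair the samples. Members and lists were chosen with earlier results of these data known. Every member is named; all 6 array values are given for the 5 regulators and for the 3 genes of each enzyme class with the lowest unadjusted p, and among other pathway genes values are given for those past the threshold with or without the block and for Abca1, Mylip and Acss2, except some genes that are not reported here. Alternatives were other scalings, normexp (offset 50, on median spot signals), filters, the slide as a block, each array or slide left out (slides 1 and 3 chosen after seeing the data) and single slides. Array annotation and RefSeq table follow different builds, so gene positions are given only for promoter windows.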

Additional observations from a re-analysis of the deposited data

How the results depend on the processing

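The number of members called was 0 in the 18 alternatives as well, with lowest adjusted p (limma) from 0.0687 (Mvd, without TSA array 2) to 0.850 (Hmgcs1, without DMSO array 1). The paired fit, blocked by slide, called 618 probes higher and 41 lower in TSA, against 259 and 10 with treatment alone. The block changed no call of a member or other pathway gene named here. Of the markers named, Col1a2 passed with the block and not without it (limma adjusted p = 0.0473 and 0.0746). Counts of higher probes were 142 in the authors' table, 137 with median centring, 127 with normexp, 148 with quantile normalization and 56 without the filter on dim probes (0 lower), 0 higher and 0 lower with slide 1, 2 or 3 left out, and 0 to 571 higher and 0 to 54 lower with 1 array left out, the highest without TSA array 2. On slide 1 alone the medians were -0.41 (fatty acid), -0.65 (sterol) and -0.19 (regulators), and the sterol minus fatty acid gap was -0.24; on slide 2 alone the mevalonate median was 0.0079 and the sterol minus regulator gap -0.17. With 1 array left out that gap ran from -0.48 to -0.16. Some members changed sign, among them Ebp and Acat2, whose fitted differences with all arrays were 0.36 and -0.29. Leaving out slide 1 gave Acat2 0.040, Fdft1 0.11, Fdps 0.22, Insig2 -0.062, Mvk 0.37, Srebf2 0.061 and Tm7sf2 0.052. Leaving out slide 2 gave Dhcr7 -3.9e-05, Fads1 -0.25, Fads2 -0.24, Scap -0.074, Scd2 -0.050 and Srebf1 -0.043. Leaving out slide 3 gave Insig1 -0.030 and Mvk 0.069. Median centring gave Fads1 -0.057, Insig1 -0.042, Insig2 -0.056 and Scd2 -0.040, the authors' table gave Scd2 -0.031 and normexp Scd2 -0.020. With 1 array left out, ranges were -0.10 to 0.34 for Dhcr7, -0.16 to 0.69 for Ebp, -0.33 to 0.23 for Fads1, -0.31 to 0.52 for Fads2, -0.44 to 0.069 for Fdft1, -0.57 to 0.24 for Fdps, -0.14 to 0.15 for Insig1, -0.044 to 0.15 for Insig2, -0.60 to 0.32 for Mvk, -0.18 to 0.33 for Scap, -0.15 to 0.20 for Scd2, -0.075 to 0.21 for Srebf1 and -0.62 to 0.064 for Tm7sf2. Beyond fewer arrays, where these were left out, the cause was not tested. The mean was lower in TSA for 25 members with quantile normalization, 29 with median centring and 26 with normexp or in the authors' table. All 34 members were well above background on all 6 arrays; the part of the low brightness of TSA array 2 in their values was not tested.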

Other observations

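The 12 genes of fatty acid oxidation had a median difference of 0.35 in TSA minus DMSO, with 10 higher means (58.0% of all genes), and by slide 0.07, 0.65 and 0.16. The median was -0.04 without TSA array 2 and 0.10 with slide 2 left out. None passed after adjustment in limma, and 3 had an unadjusted p under 0.05 and were higher (12.1% of all genes). Cpt1a, which lets long-chain fatty acids into mitochondria, was chosen after its values were seen and was at -0.32, -1.04 and -1.43 on TSA arrays, against -2.04, -2.39 and -2.15 on DMSO arrays. The groups did not overlap, with a difference of 1.27 ± 0.32 (SE, n = 3 each; limma adjusted p = 0.154, or 0.0799 when blocked by slide).

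The 9 tested genes of isoprenoid use, which attach farnesyl and geranylgeranyl groups to proteins or make dolichol and ubiquinone, had a median difference of -0.11, or -0.24 without TSA array 2. All 9 were lower in TSA on slides 1 and 3, against 38.8% of all genes, and 3 on slide 2, against 34.7%. Their slide 1 and slide 3 differences ran from -0.44 to -0.14 and from -0.46 to -0.03. Pggt1b, a subunit of a geranylgeranyl transferase also picked after its values were seen, had differences of -0.44, -2.42 and -0.46, and so was lowest on slide 2, as Hmgcs1, Idi1 and Elovl6 were.

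Ch25h, the enzyme that makes a hydroxylated cholesterol and likewise picked after its values were seen, was at -3.84, -4.09 and -4.15 on TSA arrays, against -6.26, -5.37 and -5.48 on DMSO arrays, and was well above background on 5 of the 6 arrays. Its difference was 1.67 ± 0.29 (limma adjusted p = 0.0618, or 0.0627 when blocked by slide), and it was higher on each slide.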
